A study of Homo sapiens with 6 samples.

Results

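The levels of 8 genes that regulate alternative splicing in epithelial and mesenchymal cells were followed through acquired resistance to EGFR kinase inhibitors. The genes were ESRP1, ESRP2, RBM47, QKI, RBFOX2, MBNL1, MBNL2 and PTBP1, taken by name from the deposited gene tables, where 8 of 8 were found among 21463 genes. The mRNA libraries came from established lung cancer cell lines (non-small cell), 3 lines with 1 parental and 1 resistant library each. The EGFR mutation is labelled E19Del for HCC827 and for PC9, whose sublines HCC827-GR and PC9-GR were selected with the kinase inhibitor gefitinib. For H1975 the label is L858R/T790M, and the subline H1975-OR was selected with osimertinib, which was designed against receptors with the T790M change. According to the labels, parental cells were untreated, the inhibitor was raised stepwise over 90 days, and the resistant cells are those left at the end. The labels do not say whether a subline is 1 clone or a pool, nor whether drug was present at harvest.

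Epithelial and mesenchymal cells make different protein isoforms from many of the same genes. ESRP1 and ESRP2 are a pair of RNA-binding proteins of epithelial cells that promote epithelial exon choices in genes such as FGFR2, CD44, CTNND1 and ENAH, and ZEB1 represses ESRP1. RBM47 is another RNA-binding protein of epithelia. QKI and RBFOX2 favour many exon choices seen in mesenchymal cells, MBNL1 and MBNL2 are the muscleblind proteins that promote differentiated splicing patterns, and PTBP1 is a general repressor of exons next to pyrimidine tracts. The deposited counts are per gene, so they give the level of each regulator and not the exons it acts on.

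Promoter windows from RefSeq (build GRCh38.p14, 250 bases before to 50 after a start) were given for 4 of the 8 genes, RBM47, MBNL1, MBNL2 and PTBP1, in 11 windows. RBM47 is shown because its level was lower in every resistant library, by 1.69- to 2.74-fold, and it has several annotated starts. The first window, at chr4:40630545-40630844 on the minus strand, lies at the farthest upstream of its 4 windows. Another, at chr4:40514532-40514831 on the same strand, lies at a start inside the gene and holds, in capitals, the letters bound by ZEB and SNAI repressors (the E-box CACCTG, or CAGGTG on the other strand).
RBM47 upstream start: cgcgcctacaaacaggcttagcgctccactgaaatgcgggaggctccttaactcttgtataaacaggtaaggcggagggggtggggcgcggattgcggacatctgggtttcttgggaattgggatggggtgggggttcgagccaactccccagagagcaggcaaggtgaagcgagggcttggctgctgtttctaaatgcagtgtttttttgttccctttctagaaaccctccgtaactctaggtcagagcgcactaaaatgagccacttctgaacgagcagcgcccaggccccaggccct
RBM47 internal start: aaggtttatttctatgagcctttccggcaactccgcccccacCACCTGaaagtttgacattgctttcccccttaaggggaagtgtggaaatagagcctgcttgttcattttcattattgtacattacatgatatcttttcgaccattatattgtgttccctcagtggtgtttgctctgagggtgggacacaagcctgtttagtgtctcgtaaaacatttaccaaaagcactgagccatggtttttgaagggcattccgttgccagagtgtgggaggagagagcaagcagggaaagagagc
The E-box begins at base 43 of the internal window, counted from its 5′ end. It was in 1 of the 11 windows of these genes and in 20.6% of all 35116 windows of the same length. The Grainyhead motif AACCGGTT was in 0 of the 11, against 0.134% of all windows. These are matches of letters, and the counts do not say which start was used.

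The libraries held 21222102 to 29366085 exon reads, of which 90.8% to 91.7% mapped uniquely, and 99.8% to 100% of the reads of the 8 genes did so. Values are given as CPM, exon reads scaled to library size and corrected for library composition with edgeR's TMM factors, within a gene, and as TPM, which also divides by exon length, between genes. With 0 reads, the level could still be as high as 0.0983 to 0.145 CPM (3 counts) in the different libraries. The epithelial markers EPCAM, CDH1, KRT8, KRT18, KRT19 and CLDN7 summed to 1430 to 10371 CPM per library, and 6 of 6 were lower in each resistant library than in its parental one. Leukocyte markers summed to 1.25 to 12.2 CPM, endothelial markers to 0.8 to 20.0 CPM and fibroblast markers to 14.7 to 126 CPM. Single genes of these lists differed, and PTPRC, VWF and DCN reached at most 0.417, 0.748 and 0.112 CPM. CDH5, an endothelial marker, was at 5.64 and 0.417 CPM in PC9 and at 3.98 and 4.43 CPM in H1975. LYZ reached 3.81 CPM in parental PC9, and LUM 2.69 CPM in HCC827-GR. Of the genes of these lists, 0 had 0 reads in all libraries. Most of the highest sums came from CD14 in H1975 (9.24 and 11.5 CPM), PECAM1 in parental PC9 (14.4 CPM) and COL1A1 in H1975-OR (126 CPM). Their part in the results was not tested. With 1 library per line and state, a difference within a line has no replicate and no p-value, and its 95% interval covers counting error alone. Where resistant and parental libraries were compared over all lines, each line served as a replicate. The p-values thus rest on the spread between lines, with the variance of each gene drawn toward that of the other genes. A lower level in bulk RNA cannot tell fewer expressing cells from less RNA per cell.

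The 3 epithelial regulators had lower levels in the resistant libraries, and the other 5 were mixed. ESRP1, ESRP2 and RBM47 were lower in all 3 lines, where 13.5% of the 13541 tested genes were. For ESRP2 in H1975 the fold was only 1.02 lower, with a counting interval that included no change (0.88 to 1.18). QKI was higher in all 3 lines, where 14.3% of genes were, but its H1975 ratio changed sign with TPM (−0.02). The median over all genes in H1975 shifted by −0.1 with TPM. In HCC827, 3 of 8 genes were at least 2-fold lower (ESRP1, ESRP2 and RBM47), against 7.66% of the 10290 genes that reached 10 CPM in either HCC827 library. A further 2 were at least 2-fold higher (QKI and RBFOX2), against 10.5%. In PC9, 0 of 8 passed 2-fold in either direction (1.7% of genes lower, 2.41% higher). In H1975, 7 of 8 reached 10 CPM and 0 passed 2-fold (3.22% of genes lower, 1.75% higher). The exception to the minimum is ESRP1 in H1975, which was under 10 CPM in both libraries. The 8 genes were chosen with earlier results of these data known, so these counts are a description and not a test.

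Across the lines, 0 of the 8 genes passed the quasi-likelihood test of edgeR, nor did any other gene (0% of 13541 in either direction, with 502 at an unadjusted p under 0.05). Of the 8 genes 1, RBM47, had an unadjusted edgeR p under 0.05. DESeq2 called 1 of the 8, ESRP1, lower (adjusted p = 0.0397), where it called 0.192% of genes lower and 0.236% higher. On the same libraries edgeR gave ESRP1 an adjusted p of 0.903, and 0.341 or more without 1 line or without the block. DESeq2 was not rerun in those settings, so whether its call rests on 1 line was not tested. limma-voom called 0 of the 8. The median log2 ratio of the 8 genes was 0.06 in HCC827, −0.22 in PC9 and −0.16 in H1975. Over all genes that reached 10 CPM in the line it was −0.01, −0.02 and 0.05. The H1975 median of the 8 genes includes ESRP1 (−2.78), which did not reach 10 CPM there, so these H1975 medians are not filtered alike.

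**Figure D1:**
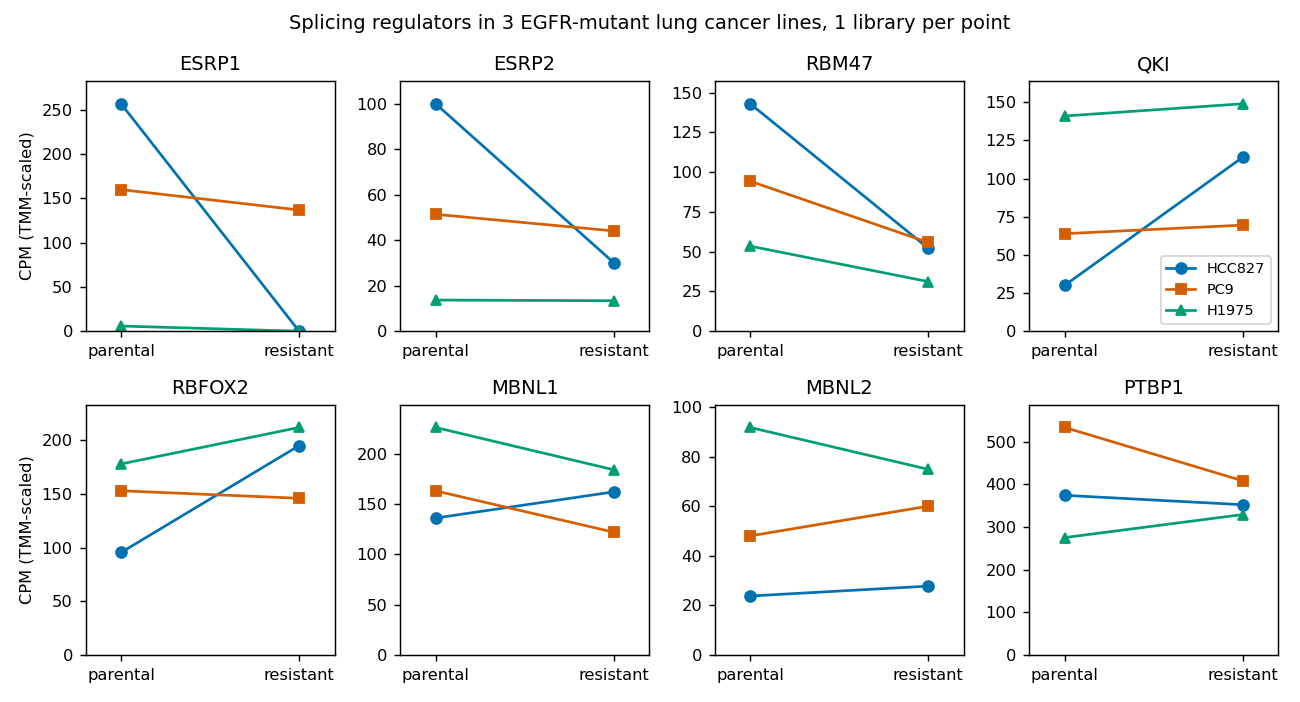
Level of each splicing regulator in each library: vertical axes, TMM-scaled CPM from 0; horizontal axis, parental and resistant state; each point is 1 library and lines join the pair of a cell line. ESRP1 goes from 257 to 0.187 CPM in HCC827, RBM47 is lower in each of the 3 lines, and PTBP1 lies between 275 and 533 CPM throughout.

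**Figure D2:**
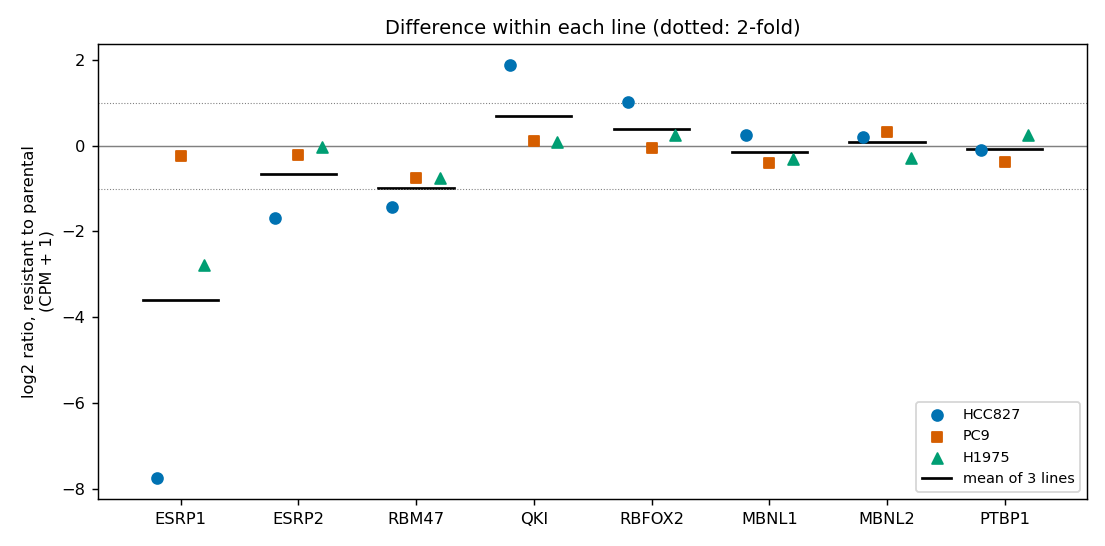
Log2 ratio of resistant to parental (1 CPM added to each) for the 8 genes: points are the 3 lines, black bars the mean over the lines, dotted lines 2-fold. ESRP1 spans −7.76 to −0.23 between lines, while RBM47 spans −1.44 to −0.75.

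ESRP1 (ENSG00000104413, hg38 chromosome 8, 94641074 to 94707466, plus strand) was the regulator with the widest range. It had 7061 reads in parental HCC827 and 5 in HCC827-GR, or 257 and 0.187 CPM. PC9 had 160 CPM in the parental and 137 CPM in the resistant library. H1975 had 138 reads in the parental library, 5.85 CPM, and 0 in H1975-OR. Parental HCC827 and both PC9 libraries were thus high, parental H1975 was low, and HCC827-GR and H1975-OR were at or near 0. The parental and resistant ranges overlapped because PC9-GR kept a high level. The level in HCC827-GR was 1373-fold lower (95% counting interval 588 to 4230), in PC9-GR 1.17-fold lower (1.12 to 1.23), and in H1975-OR at least 59.5-fold lower against the floor of 3 counts. The exact counting interval of that H1975 fold, which also covers the error of the parental count, starts at 47.7. With 1 CPM added, the log2 ratios were −7.76, −0.23 and −2.78, a mean of −3.59 ± 3.83 (SD, n = 3 lines). The H1975 ratio depends on the amount added, from −5.89 with 0.1 CPM to −1.12 with 5 CPM. The fitted edgeR log2 fold change was −5.80 ± 2.88 (SE, adjusted p = 0.903), and −1.97 without the HCC827 pair, −10.38 without PC9 and −4.57 without H1975. Of the reads in its introns, 425 were seen in parental HCC827 and 0 in HCC827-GR, and 19 in parental H1975 and 0 in H1975-OR. PC9 had 341 and 210, an intron fold of 0.654 (95% counting interval 0.548 to 0.779), below the exon interval of 0.814 to 0.897. A gap between intron and exon log2 ratios as low or lower was seen in 21.5% of 6898 genes in PC9.

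ESRP2 (ENSG00000103067, hg38 chromosome 16, 68229111 to 68238102, minus strand), the partner of ESRP1 with related activity, differed mainly in HCC827. Its level was 100 CPM in parental HCC827 and 30.2 CPM in HCC827-GR. PC9 had 51.4 and 44.1 CPM, and H1975 had 13.7 and 13.4 CPM. The order of the lines in the parental state was that of ESRP1, and the groups overlapped. ESRP2 was 3.31-fold lower in HCC827-GR (3.06 to 3.58) and 1.17-fold lower in PC9-GR (1.07 to 1.27). In H1975-OR the fold of 1.02 lower had an interval that included no change (0.88 to 1.18). The mean log2 ratio was −0.65 ± 0.91 (SD, n = 3 lines), and the edgeR log2 fold change −0.65 ± 0.40 (SE, adjusted p = 0.903), or −0.13 without HCC827. NFATC3, a protein-coding gene on the other strand, overlaps ESRP2 in the GENCODE v44 annotation.

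In TPM, ESRP1 made up 71.8% of the summed ESRP pair in parental HCC827 and 0.611% in HCC827-GR. In PC9 the share was 75.6% and 75.5%, and in H1975 it was 29.8% and 0%. ESRP2 therefore held nearly all of the remaining ESRP message in HCC827-GR, at 17.9 TPM, and all that was counted in H1975-OR, at 10.2 TPM.

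RBM47 (ENSG00000163694, hg38 chromosome 4, 40423267 to 40630875, minus strand) was lower by a more even factor. HCC827 had 143 CPM in the parental and 52.2 CPM in the resistant library. PC9 had 94.3 and 55.8 CPM, and H1975 had 53.5 and 31.2 CPM. Each resistant library was below its own parental library, but the ranges overlapped, since PC9-GR was above parental H1975. RBM47 was 2.74-fold lower in HCC827-GR (2.58 to 2.91), 1.69-fold lower in PC9-GR (1.57 to 1.81) and 1.71-fold lower in H1975-OR (1.57 to 1.87). The mean log2 ratio was −0.98 ± 0.40 (SD, n = 3 lines). The edgeR log2 fold change was −0.99 ± 0.22 (SE), with an unadjusted p of 0.00654, the 42nd smallest of 13541, and an adjusted p of 0.903. DESeq2 gave an adjusted p of 0.0635. Leaving out a line gave values between −1.13 and −0.77. In PC9 its ratio was the farthest from 1 among the 8 genes, while ESRP1 and ESRP2 were each 1.17-fold lower there.

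QKI (ENSG00000112531, hg38 chromosome 6, 163414000 to 163578596, plus strand), an RNA-binding protein of the STAR family, was higher in HCC827-GR and close to its parental level in the other resistant libraries. Its level was 30.1 CPM in parental HCC827 and 114 CPM in HCC827-GR. PC9 had 63.9 and 69.5 CPM, and H1975 had 141 and 149 CPM. HCC827-GR was thus above both PC9 libraries and below both H1975 libraries. The fold was 3.80 in HCC827 (3.52 to 4.11), 1.09 in PC9 (1.01 to 1.17) and 1.06 in H1975 (1.01 to 1.11). The mean log2 ratio was 0.70 ± 1.03 (SD, n = 3 lines), and the edgeR log2 fold change 0.69 ± 0.44 (SE, adjusted p = 0.903), or 0.10 without HCC827.

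RBFOX2 (ENSG00000100320, hg38 chromosome 22, 35738736 to 36028425, minus strand), which binds the RNA element UGCAUG, was also lowest in parental HCC827. Its level was 95.5 CPM in parental HCC827 and 195 CPM in HCC827-GR. PC9 had 153 and 146 CPM, and H1975 had 178 and 212 CPM. HCC827-GR was within the range of the H1975 libraries, and the groups overlapped. The fold was 2.05 in HCC827 (1.95 to 2.14), 0.957 in PC9 (0.912 to 1.0) and 1.19 in H1975 (1.15 to 1.24). The HCC827 difference passed 2-fold by a narrow margin, with a log2 ratio of 1.02, and did not when scaled by library size alone (0.92) or in TPM (0.93). In those settings the median over all genes in HCC827 also shifted, by −0.1 and −0.08. The edgeR log2 fold change was 0.41 ± 0.27 (SE, adjusted p = 0.903), or 0.09 without HCC827.

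The muscleblind genes differed by at most 1.33-fold in a line and not in 1 direction. MBNL1 (ENSG00000152601, hg38 chromosome 3, 152243828 to 152465780, plus strand) had 136 and 162 CPM (parental, then resistant) in HCC827, 163 and 122 CPM in PC9, and 226 and 184 CPM in H1975. MBNL2 (ENSG00000139793, hg38 chromosome 13, 97221434 to 97394120, plus strand) had 23.8 and 27.8 CPM in HCC827, 48.1 and 60.1 CPM in PC9, and 91.9 and 75.0 CPM in H1975. Both genes were lowest in HCC827 and highest in H1975 among the parental libraries, the reverse of the order of ESRP1 and ESRP2. The mean log2 ratio was −0.15 ± 0.35 for MBNL1 and 0.08 ± 0.32 for MBNL2 (SD, n = 3 lines), each smaller than its spread. MBNL1 was 79.2% of the MBNL pair in TPM in parental HCC827 and 79.6% in HCC827-GR, 62.2% and 62.1% in H1975, and 69.3% and 57.6% in PC9. The share thus differed by −11.7 percentage points in PC9, 0.34 in HCC827 and −0.159 in H1975.

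PTBP1 (ENSG00000011304, hg38 chromosome 19, 797075 to 812327, plus strand) was the most abundant of the 8 genes in TPM in every library, between 219 and 357 TPM. Its level was 374 and 352 CPM in HCC827, 533 and 408 CPM in PC9, and 275 and 329 CPM in H1975, so it was lower in 2 resistant libraries and higher in 1. Its mean log2 ratio was −0.07 ± 0.32 (SD, n = 3 lines). The edgeR adjusted p was 0.928 for MBNL1, 0.962 for MBNL2 and 0.97 for PTBP1.

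The order of the other regulators in TPM differed between libraries. In parental HCC827 the order after PTBP1 was ESRP1 (160 TPM), ESRP2 (62.7), RBM47 (54.0), MBNL1 (46.5), RBFOX2 (31.7), MBNL2 (12.2) and QKI (4.36). In HCC827-GR it was RBFOX2 (61.3), MBNL1 (52.4), RBM47 (18.7), ESRP2 (17.9), QKI (15.7), MBNL2 (13.4) and ESRP1 (0.11). ESRP1 stood next after PTBP1 in both PC9 libraries, at 102 and 85.2 TPM, and last in both H1975 libraries, at 4.71 and 0 TPM. QKI was last in both PC9 libraries (9.42 and 10.1 TPM) and at place 5 of 8 in both H1975 libraries (26.3 and 26.0 TPM). With 1 library each, whether neighbours such as RBM47 and ESRP2 in HCC827-GR, or QKI and RBM47 in parental H1975 (26.3 and 26.1 TPM), differ was not tested.

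As a measure of balance, the summed TPM of ESRP1, ESRP2 and RBM47 was set against that of the same genes with QKI and RBFOX2. This epithelial share was 88.5% in parental HCC827 and 32.3% in HCC827-GR, 73.6% and 69.6% in PC9, and 29.0% and 18.0% in H1975. It was lower in the resistant library of each line, with differences of −56.2 percentage points in HCC827, −4.09 in PC9 and −11.0 in H1975. The parental share of H1975 was close to that of HCC827-GR and far below those of the other parental lines. In HCC827 both sides moved, with the epithelial sum at 277 and 36.7 TPM and the mesenchymal sum at 36.0 and 76.9 TPM. The largest part of each difference was ESRP1, at 160 and 0.11 TPM, and RBFOX2, at 31.7 and 61.3 TPM. The RBFOX2 difference was mostly in exon reads that span no junction, as given below. In H1975 the epithelial sum was 42.0 and 24.4 TPM and the mesenchymal sum 103 and 111 TPM. No test was run on these 3 differences. The smaller ones depended on how the share was made: with MBNL1 and MBNL2 added to the mesenchymal sum they were −4.26 in H1975 and −3.91 in PC9, and in CPM −7.64 and −6.22. In HCC827 the same choices gave −54.1 and −58.9.

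**Figure D3:**
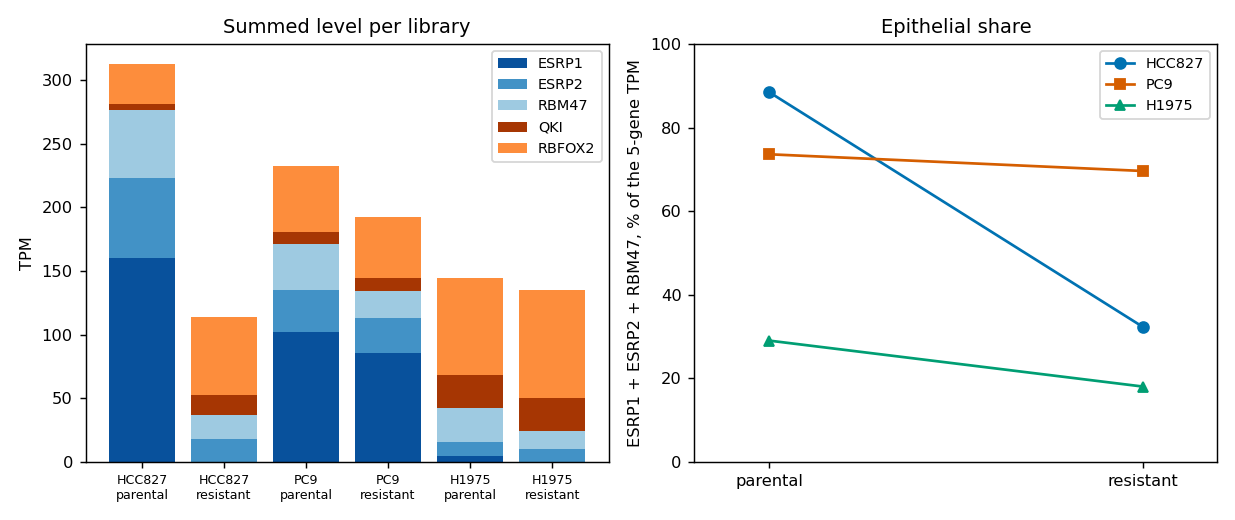
Left, stacked TPM of the 3 epithelial regulators (blue) and of QKI and RBFOX2 (orange) in each library. Right, the epithelial share of that sum in percent, parental to resistant, by line. The share goes from 88.5% to 32.3% in HCC827 and from 73.6% to 69.6% in PC9, while H1975 starts at 29.0%.

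Reads in introns and reads that span exon-exon junctions, counted in the same libraries, gave a further view of each gene. Intron reads were scaled to the total of intron reads in the library. For ESRP2 and RBM47 in HCC827 the intron log2 ratios (−1.65 and −1.66) were near those of exon reads (−1.69 and −1.44). The intron log2 ratio of QKI in HCC827 was 1.85, beside 1.89 for exon reads, but it rests on 9 and 37 intron reads and was 0.84 when intron reads were scaled by exon reads with 1 added. With nothing added, that scaling gave an intron fold of 4.23 (95% counting interval 2.0 to 9.96). RBM47 differed in the other lines: its exon log2 ratio was −0.75 in PC9 and −0.76 in H1975, while its intron log2 ratio was −0.13 and 0.08. The intron fold was 0.913 in PC9 (95% counting interval 0.638 to 1.30) and 1.06 in H1975 (0.747 to 1.51). These rest on 71 and 61 intron reads in PC9 and 58 and 82 in H1975. The exon intervals were 0.552 to 0.635 in PC9 and 0.536 to 0.635 in H1975. Of genes with at least 500 exon reads in both libraries, 94.5% in PC9 and 98.4% in H1975 had a gap between intron and exon log2 ratios as low as that of RBM47 or lower. For the gap of QKI in H1975 it was 94.5%. The QKI intron fold there was 1.61 (1.15 to 2.29), on 52 and 112 intron reads, beside an exon fold of 1.06 (1.01 to 1.11). Scaled by exon reads instead, the intron fold of RBM47 was 0.744 in PC9 (0.519 to 1.06), an interval that overlaps the exon one, and 1.09 in H1975 (0.772 to 1.56), which lies above it. On the other strand 2 annotated genes overlap RBM47, and whether the counting used strand is not given in the sources used here.

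RBFOX2 in HCC827 had exon and intron reads that went in opposite directions. Exon reads went from 2628 to 5227, and intron reads from 982 to 668, an intron fold of 0.683 (0.619 to 0.755). Exon-exon reads were 567 and 621, so their share of exon reads was 21.6% (Wilson 95% interval 20.0 to 23.2) in parental HCC827 and 11.9% (11.0 to 12.8) in HCC827-GR. The higher RBFOX2 exon count in HCC827-GR was thus mostly in reads that span no junction. The difference of −9.69 percentage points was as low or lower in 1.96% of the 7302 genes with at least 500 exon reads in both HCC827 libraries, whose median was −0.15. The gap between intron and exon log2 ratios was as low or lower in 0.863% of them. In the other lines the share was higher in the resistant library, 15.0% and 17.3% in PC9 and 16.7% and 21.8% in H1975.

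The exon-exon share of MBNL2 was 13.3% (10.9 to 16.1) in parental HCC827 and 20.2% (17.5 to 23.2) in HCC827-GR. A difference as high or higher was seen in 0.561% of the 7302 genes. In PC9 it was 21.0% and 16.7%, and in H1975 20.6% and 21.4%. MBNL1 likewise had 11.7% and 15.4% in HCC827, and 21.2% and 17.1% in PC9. Parental HCC827 had the lowest share of the 6 libraries for both muscleblind genes. Over all genes the exon-exon share was 55.5% and 50.2% in HCC827, 51.4% and 50.5% in PC9 and 51.7% and 53.7% in H1975. The part of these library-wide differences in the shares of single genes was not tested. MBNL2 also had exon and intron reads that went in opposite directions, in HCC827 and in PC9. In HCC827 its exon fold was 1.17 (1.05 to 1.3) and its intron fold 0.649 (0.467 to 0.898). In PC9 its exon fold was 1.25 (1.15 to 1.35) and its intron fold 0.799 (0.65 to 0.981).

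**Figure D4:**
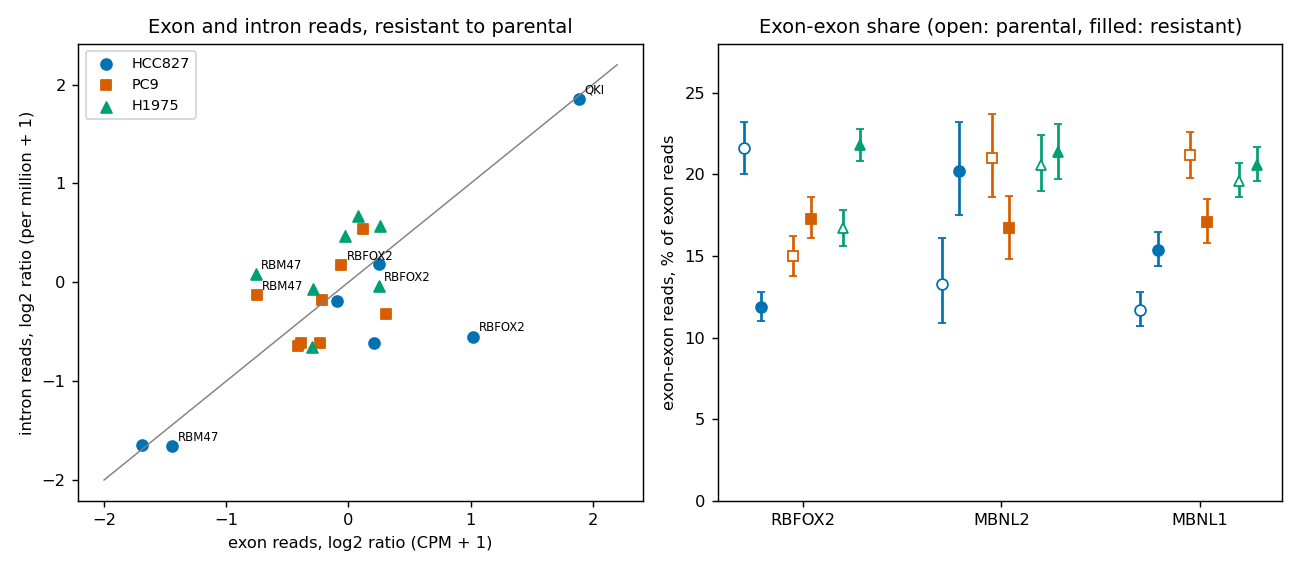
Left, intron against exon log2 ratios (resistant to parental) of the 8 genes in each line, without ESRP1 in HCC827 and H1975, where a library had 0 intron reads; the grey line marks equal ratios. Right, exon-exon reads of RBFOX2, MBNL2 and MBNL1 as a percentage of their exon reads, with Wilson 95% intervals (open, parental; filled, resistant). RBFOX2 in HCC827 lies at an exon ratio of 1.02 and an intron ratio of −0.55, and its exon-exon share goes from 21.6% to 11.9%.

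Of 11 listed relatives of the 8 genes 6 had enough reads to be tested, and 0 were called by edgeR, with 0 at an unadjusted p under 0.05. In all 3 lines 2 were lower (MBNL3 and PTBP3) and 0 were higher. MBNL3, the third muscleblind gene, had 306 reads in parental HCC827 and 1 in HCC827-GR, with a log2 ratio of −3.55, beside −0.55 in PC9 and −0.54 in H1975. It was at 28.9 and 19.4 CPM in PC9 and at 1.27 and 0.557 CPM in H1975. PTBP2 and PTBP3, relatives of PTBP1, had log2 ratios between −0.32 and 0.40 in the 3 lines. The STAR family genes KHDRBS1 and SF1 were between −0.35 and 0.18, and KHDRBS3 had −0.37, 0.94 and −0.33. RBFOX1, RBFOX3, RBM46, A1CF and KHDRBS2 were under 1 CPM in every library.

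Other splicing regulators gave a background of genes of the same function. Of 55 listed, 49 were tested and 0 were called by edgeR, with 0 at an unadjusted p under 0.05. In HCC827, 1 of 49 with at least 10 CPM was 2-fold higher (RBM24, a muscle splicing factor, at 1.02 and 11.0 CPM) and 0 were lower. Over all genes that reached 10 CPM there, 10.5% were higher and 7.66% lower. Of the 8 regulators 5 passed 2-fold in that line. The 8 genes and this list were chosen with earlier results of these data known, so the contrast is a description and not a test. In all 3 lines 5 of the 49 were higher and 4 were lower. In PC9 and H1975, 0 of 47 passed 2-fold in either direction. Their median log2 ratio was −0.10 in HCC827, −0.18 in PC9 and 0.20 in H1975. DDX5, an RNA helicase, had −0.31, −0.27 and −0.40, and CELF2 was at 10.7 and 19.2 CPM in HCC827 and at most 0.197 CPM elsewhere.

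Transcription factors of the epithelial and mesenchymal states were read beside the regulators. ZEB1, a repressor of epithelial genes, was at 0.618 and 25.7 CPM in HCC827, 1.06 and 3.04 CPM in PC9, and 43.7 and 50.1 CPM in H1975. ZEB2 was at 0.218 and 32.3 CPM in HCC827, 0.241 and 0.542 CPM in PC9, and 10.2 and 61.0 CPM in H1975. The 3 libraries with the most ZEB1 and ZEB2 were the 3 with the least ESRP1. GRHL2, an activator of epithelial genes, had 1650 reads in parental HCC827 and 0 in HCC827-GR, was at 95.5 and 102 CPM in PC9, and had 42 reads and 1 read in H1975. OVOL2 had 507 reads and 1 read in HCC827. Of 10 listed factors 9 were tested and 0 were called by edgeR (ZEB2 adjusted p = 0.903), with 1 at an unadjusted p under 0.05. In HCC827, 3 of the 7 that reached 10 CPM were 2-fold higher (ZEB1, ZEB2 and SNAI2) and 4 were 2-fold lower (GRHL1, GRHL2, OVOL1 and OVOL2). In PC9 1 of 4 was 2-fold higher (SNAI2, 8.39 and 18.7 CPM), and in H1975 1 of 4 (ZEB2).

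Cell markers were read in the same libraries. The epithelial markers were at least 2-fold lower for 6 of 6 genes in HCC827, 0 of 6 in PC9 and 3 of 6 in H1975 (EPCAM, CDH1 and KRT19). CDH1, the adhesion protein E-cadherin, was at 466 and 22.1 CPM in HCC827, 212 and 150 CPM in PC9, and 22.4 and 0.131 CPM in H1975. The mesenchymal markers VIM, CDH2 and FN1 were higher in all 3 lines, by at least 2-fold for 3 of 3 in HCC827, 2 of the 2 that reached 10 CPM in PC9 and 0 of 2 in H1975. FN1, which encodes fibronectin, was at 120 and 455 CPM in HCC827, 125 and 773 CPM in PC9, and 957 and 1437 CPM in H1975. VIM, which encodes vimentin, was at 39.0 and 875 CPM in HCC827, 31.7 and 103 CPM in PC9, and 2118 and 2466 CPM in H1975. In PC9 VIM and FN1 thus passed 2-fold, where 0 of the 8 regulators did. By edgeR 0 of these 9 markers were called, DESeq2 called 1 of them (FN1, adjusted p = 0.0276), and their part in the levels of the regulators was not tested.

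The genes known for exons that ESRP or QKI and RBFOX2 regulate were read for total level, since their exon choice is not in the counts. Of 22 listed, 21 were tested, and 0 were called by edgeR with 1 at an unadjusted p under 0.05. In HCC827 0 of 21 were 2-fold lower, and in PC9 0 of 21 passed in either direction. In H1975 1 of 21 was 2-fold lower, the integrin ITGA6 at 232 and 76.5 CPM. CD44, a hyaluronan receptor with variant exons, was at 311 and 614 CPM in HCC827, 918 and 1170 CPM in PC9, and 1007 and 1346 CPM in H1975. TCF7L2, a Wnt pathway factor, was at 19.7 and 10.1 CPM, 10.5 and 6.26 CPM, and 19.0 and 20.0 CPM in the same order of lines.

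Genes with the nearest pattern over the 6 libraries were found by the root mean square difference of log2(CPM + 1), each gene centred on its own mean, among 9455 protein-coding genes that reached 10 CPM in a library and had at least 90% unique reads. For ESRP1 they were ST14 (difference 0.42), a membrane protease, ADGRF1 (0.45), an adhesion receptor, and AP1M2 (0.66), an epithelial adaptor of vesicle coats. ST14 was at 333 and 1.35 CPM in HCC827, 238 and 156 CPM in PC9, and 4.28 and 0.459 CPM in H1975. ESRP2 was 2.61 from ESRP1, the 370th nearest gene. For ESRP2 the nearest were SLC29A2 (0.19), a nucleoside transporter, CYP2S1 (0.20) and VWA1 (0.26), and for RBM47 they were ZNF513 (0.19) and TRAF4 (0.20). For QKI they were PTPRS (0.09), a receptor phosphatase, OSTM1 (0.15) and SLC25A27 (0.17), with RBFOX2 at 0.44. PTPRS was at 28.5 and 117 CPM in HCC827, 58.8 and 62.1 CPM in PC9, and 134 and 123 CPM in H1975. The 6 libraries come in pairs from 3 lines, so they are not independent points.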

How the data were processed

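Per the labels, stranded mRNA libraries were made from total RNA of the 6 cultures. Trimmomatic, Bowtie2 and the build hg38 stand in the submitters' processing notes without versions, while for the counting tool, its use of strand and the annotation release the entry is "not given in the sources used here". Per the file headers the authors deposited whole-number counts per gene (total exon, unique exon, intron and exon-exon reads) and TPM for each library. A series table holding the same TPM, rounded, was not used.

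Total exon reads were compared by quasi-likelihood in edgeR 4.0.16 (R 4.3.3), scaled with TMM and filtered with filterByExpr at a minimum count of 10 and a total of 15. The cell line was a block, since both libraries of a pair come from the same line. That left 13541 genes and 2 residual degrees of freedom. All p-values are two-sided, were adjusted by Benjamini-Hochberg across the tested genes, and passed under 0.05. DESeq2 1.42.0 and limma 3.58.1 were alternatives, and the fits were tested on simulated data. That simulation gave a changed gene the same fold in every line and had less spread between libraries than these data. It therefore does not show how the fits behave here. Log2 ratios within a line used TMM-scaled CPM plus 1 CPM, and 2-fold was counted only where a gene reached 10 CPM in either library. Fold intervals are exact (Clopper-Pearson), at 95%, cover counting error only since reads are not independent molecules, and a library at 0 was set to a floor of 3 counts.

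The 8 genes and the lists (relatives, other splicing regulators, transcription factors, genes with regulated exons, cell markers) were chosen with earlier results of these data known. Named genes were all 8, relatives with at least 1 CPM, of the other lists the 3 with the largest mean log2 ratio in size, with ZEB1, ZEB2, GRHL2 and OVOL2 and all cell markers, and the 3 nearest patterns (smallest root mean square difference) for ESRP1, ESRP2, RBM47 and QKI. The exon-exon shares were added after the data were seen. Some results that these rules took are not reported here.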

Additional observations from a re-analysis of the deposited data

Results flagged for a closer look

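Some genes had log2 ratios of opposite sign in 2 lines, with counting intervals that excluded no change in both. The difference between the lines was not tested, since each has 1 library per state. MBNL1 was higher in HCC827-GR and lower in PC9-GR, log2 ratios that differ by 0.66. MBNL2 was higher in PC9-GR and lower in H1975-OR, a difference of 0.60. PTBP1 was higher in H1975-OR and lower in PC9-GR, a difference of 0.64. Each direction in exon reads was the same under the 6 other scalings, units and added amounts tried. All 3 differences are below 2-fold.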

How the results depend on the processing

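The count of called genes depended on the tool: edgeR called 0 in all and 0 of the 8 regulators, and DESeq2 called 58 and 1 (ESRP1), while limma-voom, the other normalization and filters, unique reads, no replicate block and each line left out gave 0 of the 8. With no minimum level, 1 of the 8 genes (ESRP1, lower) passed 2-fold in H1975 in place of 0. The edgeR log2 fold change of MBNL2 (0.08) changed sign with no replicate block (−0.01) and ranged from −0.05 without PC9 to 0.28 without H1975. That of PTBP1 (−0.07) ranged from −0.22 without H1975 to 0.07 without PC9. That of ESRP1 ranged from −10.38 without PC9 to −1.97 without HCC827, and with no replicate block it was −1.62. Without HCC827 the values of ESRP2, QKI and RBFOX2 were −0.13, 0.10 and 0.09, so their size over the lines rests on that pair. Of 144 recomputed log2 ratios within a line, 19 moved beyond counting error and 0 past 2-fold changed sign. The difference in epithelial share ran from −58.9 to −54.1 points in HCC827, −6.22 to −3.91 in PC9 and −11.0 to −4.26 in H1975 over the alternatives. For RBM47 in PC9 the exon and intron intervals overlapped when intron reads were scaled by exon reads, a setting chosen after seeing the data. The libraries' depth put the limit for a count of 0 at 0.0983 to 0.145 CPM, and with 1 library per state no difference within a line has a replicate.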

Other observations

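The level of the genes next to ESRP1 was read as a further value, chosen after the ESRP1 counts were seen. Of the 5 nearest genes on each side with at least 10 CPM in 1 library, the log2 ratios in H1975 ran from −2.08 to 0.18, with a median of −0.16, and those in HCC827 from −1.04 to 2.70, with a median of 0.07. Of these the closest on each side, VIRMA and DPY19L4, were at 105 and 95.2 CPM, and at 41.8 and 35.5 CPM, in parental and resistant H1975. In HCC827 they were at 57.2 and 58.7 CPM, and at 19.0 and 20.1 CPM. ESRP1 itself had 0 reads in H1975-OR and 5 in HCC827-GR.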
